A study of Homo sapiens with 6 samples.

Results

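HEK293T cells that had received 4 µg of a plasmid with the cloned miR-23a/27a/24-2 cluster were compared with untransfected HEK293T cells. HEK293T cells derive from human embryonic kidney and express a viral oncoprotein, the large T antigen of SV40. Each group had 2 arrays, which the series' design text calls biological duplicates, and a further 2 arrays held cells given 2 µg of the same plasmid. The cells were transfected in a well of a multi-well plate, and neither the time until RNA extraction nor the plasmid backbone is given in the sources used here. The control cells received no plasmid, so the effect of transfection itself and that of the cluster cannot be told apart in this comparison. The 6 arrays shared 1 chip, on which duplicates of a group sat next to each other, so effects of place on the chip and of group cannot be told apart either. The genes compared were the 7924 of 18774 named genes on the arrays whose probe was detected, at a detection p-value under 0.01, on both 4 µg arrays or on both control arrays. Of these, 7136 were detected in both groups, 547 passed only through the 4 µg arrays and 241 only through the control arrays. In such bulk RNA, fewer cells with a transcript and less of it per cell cannot be told apart.

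A microRNA guides Argonaute proteins to messenger RNAs that pair with its seed, bases 2 to 8, and lowers their stability or translation. The miR-23a/27a/24-2 cluster is transcribed as 1 precursor that is cut into 3 hairpins, and its products are studied for their roles in blood cell differentiation, metabolism and cell death. Foreign DNA brought into a cell can also be met by innate sensing and stress pathways, among them NF-kB signalling and the integrated stress response, in which phosphorylated eIF2alpha slows translation and favours the transcription factor ATF4.

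The main products of the 3 hairpins are shown because they are what the plasmid encodes, and no probe of the arrays measured a mature microRNA. The hairpins lie on the minus strand of chromosome 19 (GRCh38.p14, RefSeq), MIR23A at chr19:13836587-13836659, MIR27A at chr19:13836440-13836517 and MIR24-2 at chr19:13836287-13836359, together within 373 bases. The sequences run 5′ to 3′ and the capitals mark the seed. The 3 seeds differ from each other.
hsa-miR-23a-3p: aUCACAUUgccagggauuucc
hsa-miR-27a-3p: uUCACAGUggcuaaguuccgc
hsa-miR-24-3p: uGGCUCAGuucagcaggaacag

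The stretches of 250 bases before the first listed start of 7 genes that rose are printed below. They run 5′ to 3′ on the strand of the gene and come from the RefSeq table (GRCh38.p14). Other starts of a gene are not shown. The first 4 are NF-kB response genes. Capitals in TNFAIP3, CXCL1 and NFKBIA mark matches to GGNNNTTCC, a consensus of NF-kB binding sites, or its other strand, and in CXCL8 also 1 match to the AP-1 motif TGANTCA. These genes were picked for display after their matches and values had been seen.
CXCL8, chr4:73740319-73740568, plus strand: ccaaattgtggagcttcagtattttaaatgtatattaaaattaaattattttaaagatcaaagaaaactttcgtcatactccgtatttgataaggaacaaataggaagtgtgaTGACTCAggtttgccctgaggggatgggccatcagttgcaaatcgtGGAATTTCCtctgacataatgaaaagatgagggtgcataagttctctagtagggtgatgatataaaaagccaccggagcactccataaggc
TNFAIP3, chr6:137867009-137867258, plus strand: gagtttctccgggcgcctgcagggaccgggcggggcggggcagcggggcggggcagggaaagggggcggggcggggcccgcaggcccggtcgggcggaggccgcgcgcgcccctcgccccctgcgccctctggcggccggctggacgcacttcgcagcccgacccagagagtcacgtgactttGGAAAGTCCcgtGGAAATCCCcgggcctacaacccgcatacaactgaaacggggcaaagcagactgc
CXCL1, chr4:73869143-73869392, plus strand: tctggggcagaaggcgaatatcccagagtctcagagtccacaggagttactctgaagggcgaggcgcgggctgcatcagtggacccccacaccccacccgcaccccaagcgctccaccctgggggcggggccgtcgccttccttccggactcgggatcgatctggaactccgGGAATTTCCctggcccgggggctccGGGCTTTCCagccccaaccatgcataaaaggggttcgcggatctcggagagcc
NFKBIA, chr14:35404750-35404999, minus strand: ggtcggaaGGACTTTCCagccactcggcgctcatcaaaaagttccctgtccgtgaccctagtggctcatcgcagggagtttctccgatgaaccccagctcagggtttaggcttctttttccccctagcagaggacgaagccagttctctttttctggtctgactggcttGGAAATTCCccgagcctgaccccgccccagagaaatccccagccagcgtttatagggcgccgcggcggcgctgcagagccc
The other 3 belong to the ATF4 programme and the tRNA synthetases, and capitals mark TGATGNAA, the composite C/EBP-ATF motif, or its other strand.
ATF3, chr1:212565157-212565406, plus strand: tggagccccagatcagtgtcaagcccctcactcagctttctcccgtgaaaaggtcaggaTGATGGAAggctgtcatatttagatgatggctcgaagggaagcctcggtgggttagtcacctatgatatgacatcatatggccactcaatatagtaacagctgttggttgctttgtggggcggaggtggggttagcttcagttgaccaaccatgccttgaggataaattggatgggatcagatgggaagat
ASNS, chr7:97872409-97872658, minus strand: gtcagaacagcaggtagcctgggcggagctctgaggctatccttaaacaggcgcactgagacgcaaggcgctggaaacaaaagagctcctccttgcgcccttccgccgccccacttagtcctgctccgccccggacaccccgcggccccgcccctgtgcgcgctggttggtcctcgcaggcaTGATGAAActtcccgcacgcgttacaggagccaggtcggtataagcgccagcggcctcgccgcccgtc
AARS1, chr16:70289507-70289756, minus strand: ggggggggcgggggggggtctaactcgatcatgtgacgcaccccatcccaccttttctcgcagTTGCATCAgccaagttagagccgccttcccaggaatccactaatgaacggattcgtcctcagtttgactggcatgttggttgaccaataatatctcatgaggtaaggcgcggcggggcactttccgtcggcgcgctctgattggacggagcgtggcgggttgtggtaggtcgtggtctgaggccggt
Over windows of 300 bases, 250 before and 50 after the first listed start, 10 of 17 tested NF-kB response genes with a promoter in the table held GGNNNTTCC on either strand (58.8%), against 23.4% of 6636 tested genes and 20.1% of 27305 promoters. TGATGNAA was found in 6 of 16 cytosolic tRNA synthetase genes (37.5%) and 4 of 28 genes of the integrated stress response (14.3%), against 1.88% of tested genes and 3.67% of all promoters. TGANTCA was in 11.5% of 87 genes over 2-fold higher at 4 µg, against 4.45% of tested genes and 7.76% of all promoters. It was in 0 of 19 tested members of the AP-1 and immediate early list, 9 of which rose. No match of one of these motifs overlapped another in the promoters shown. A match is a string of letters and does not show binding.

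Of 7924 tested genes, limma called 1760 at an adjusted p under 0.05 (22.2%), with 934 higher at 4 µg (11.8%) and 826 lower (10.4%). Among these, 108 were over 2-fold higher and 65 over 2-fold lower. An unadjusted p under 0.05 was reached by 2919 genes, and the median log2 change over all tested genes was 0.03. The smallest change that was called had a size of 0.38 on the log2 scale, and the median standard error was 0.14. In 66.1% of tested genes both arrays of a group lay above both of the other, so such separation was common. Of 255 genes detected on both 4 µg arrays and on 0 control arrays 148 were called higher, and of 80 detected on both control arrays and on 0 of the 4 µg arrays 51 were called lower. The count of calls fell to 720 without 4 µg replicate 1, 691 without 4 µg replicate 2, 800 without control replicate 1 and 934 without control replicate 2. Scaling moved the split between directions: median scaling over the tested probes gave 786 higher and 1034 lower, the authors' processed values 1341 and 615, and median scaling over all probes 1591 and 363, the last with a median log2 change of 0.18 over all tested genes. The values below are normalized intensities, which include an added offset of 16, and levels of different probes are not compared.

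**Figure D1:**
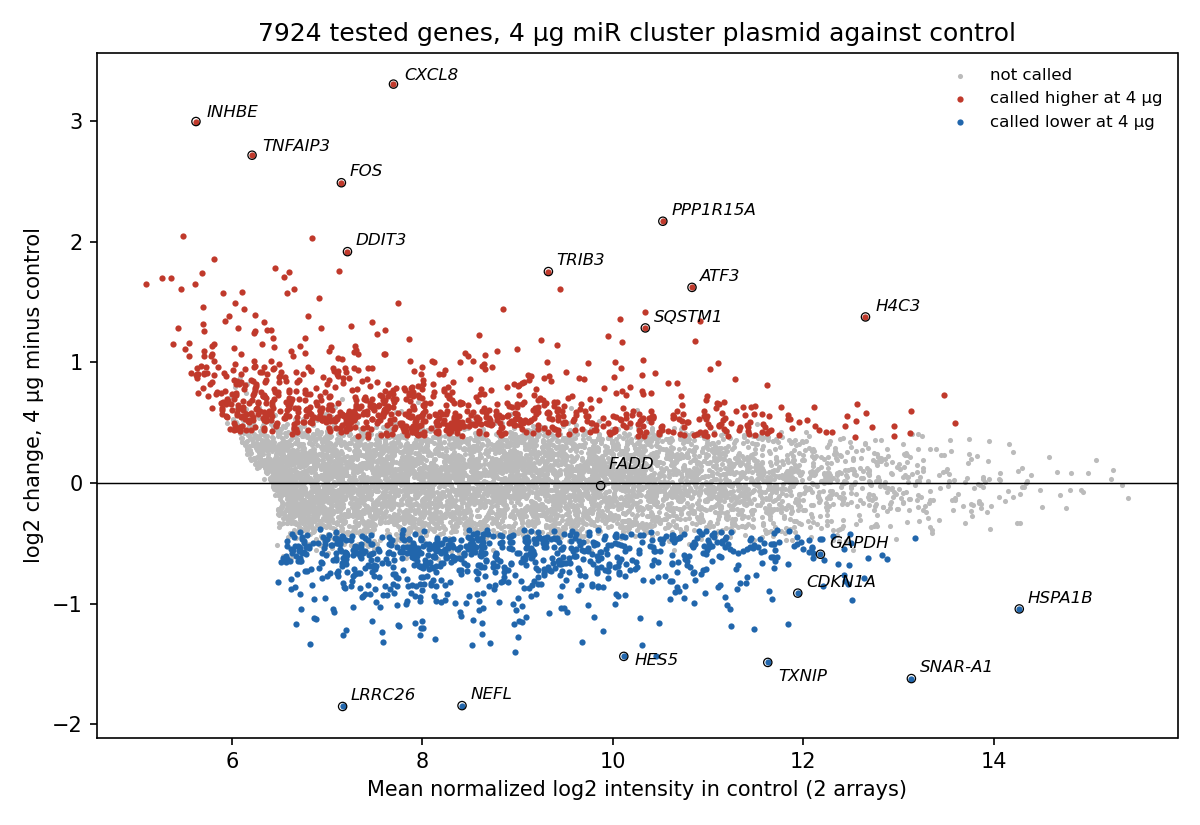
Each point is 1 of 7924 tested genes, with its mean normalized log2 intensity on the 2 control arrays on the x axis and its log2 change, 4 µg minus control, on the y axis. The 934 genes called higher are red, the 826 called lower are blue and the others grey, and CXCL8 has the largest change at 3.30.

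Genes of the NF-kB response were higher at 4 µg. Of 20 tested members 15 rose, against 11.8% of all tested genes, and 5 were not called. Their median log2 change was 1.03, against 0.03 over all tested genes. Because 9 of the 20 passed the detection filter only through the 4 µg arrays, which favours a rise, the members detected in both groups are given too: 8 of 11 rose, with a median of 0.70. Another 20 listed genes were not tested, among them IL6, ICAM1 and RELA.

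CXCL8, which encodes the neutrophil attractant interleukin 8, had an intensity of 2044 and 2058 on the 4 µg arrays, against 206.5 and 208.9 on the control arrays. The groups did not overlap, and the change of 3.30 on the log2 scale (SE 0.12), or 9.88-fold, was the largest of any tested gene (adjusted p = 5.22e-07). TNFAIP3, which encodes A20, a deubiquitinase that shuts NF-kB signalling down, read 521.0 and 455.5 at 4 µg, against 69.5 and 79.1 in the control, where it was detected on 0 of 2 arrays. The rise was at least 5.59-fold (adjusted p = 3.41e-06). Other inhibitors of the pathway rose as well. NFKBIA, the inhibitor IkB-alpha that holds NF-kB in the cytoplasm, had 4586 and 5199 at 4 µg and 1825 and 2035 in the control, a 2.53-fold rise (log2 1.34, SE 0.13; adjusted p = 0.000225). NFKBIB and NFKBIE, which encode the related inhibitors IkB-beta and IkB-epsilon, rose by 0.68 (SE 0.16) and 0.67 (SE 0.16) on the log2 scale.

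NFKB1, the gene of the p105 and p50 subunit, read 4029 and 4428 at 4 µg against 2038 and 1712 in the control, a 2.26-fold rise (log2 1.18, SE 0.14; adjusted p = 0.000483). The signalling proteins of the response were low in the control. TNF, CCL20, CXCL10 and PLAU were detected on 0 of 2 control arrays and were at least 1.64-fold, 2.36-fold, 1.76-fold and 1.54-fold higher at 4 µg, TNF being the cytokine that activates the pathway, CCL20 and CXCL10 chemokines and PLAU the urokinase that activates plasminogen. CXCL1, another neutrophil attractant, and IL32, a cytokine, were detected on 1 of 2 control arrays and rose by 1.20 (SE 0.13) and 1.33 (SE 0.14). The members not called were NFKBIZ (0.30), CCL2 (0.19), SOD2 (0.13), CD83 (-0.08) and TRAF1 (log2 change near 0, adjusted p = 0.986). Leaving out 1 array at a time gave 13 or 14 members higher, and 8 were higher among genes required on all 4 arrays.

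Genes that ATF4 raises in the integrated stress response were also higher. Of 31 tested members 18 rose, against 11.8% of all tested genes, and 13 were not called, with a median log2 change of 0.50. Of the 28 detected in both groups 16 rose, with a median of 0.50 as well. At an unadjusted p under 0.05, 21 were higher and 1 lower. INHBE, an activin subunit of the liver that stress also induces, had 379.9 and 406.5 at 4 µg against 49.9 and 48.8 in the control, where it was detected on 0 of 2 arrays. The rise was at least 4.51-fold (adjusted p = 6.32e-07).

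PPP1R15A, which encodes GADD34, the phosphatase subunit that takes the phosphate off eIF2alpha, read 7002 and 6276 at 4 µg and 1544 and 1410 in the control. This was a 4.49-fold rise (log2 2.17, SE 0.13; adjusted p = 1.21e-05). DDIT3, the stress transcription factor CHOP, had 547.7 and 573.2 at 4 µg against 143.9 and 153.3 in the control, a 3.77-fold rise (log2 1.92, SE 0.14; adjusted p = 4.37e-05). TRIB3, a pseudokinase that DDIT3 and ATF4 induce, had 2149 and 2166.3 against 600.9 and 684.2 (3.36-fold, adjusted p = 4.75e-05). In each of these genes the lower 4 µg array lay above the higher control array by more than the duplicates differed. ATF3, a bZIP transcription factor, read 5619 and 5599 at 4 µg and 1980 and 1681 in the control, a 3.07-fold rise (adjusted p = 0.000151).

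Among the enzymes on this list some rose and others were not called. ASNS, asparagine synthetase, had 2875 and 2930 at 4 µg against 1550 and 1733 in the control (1.77-fold, adjusted p = 0.00263). CTH, which makes cysteine, rose by 0.96 (SE 0.12), PSPH, the last enzyme of serine synthesis, by 0.56 (SE 0.13) and PCK2, the mitochondrial PEP carboxykinase, by 0.50 (SE 0.13). PHGDH, the first enzyme of serine synthesis, differed by 0.04 (adjusted p = 0.82) and MTHFD2, a mitochondrial folate enzyme, by 0.12 (adjusted p = 0.52). PSAT1 and SHMT2, which make serine and convert it to glycine, differed by 0.40 (adjusted p = 0.0521) and 0.38 (adjusted p = 0.0544), and CBS, which starts the path to cysteine, by -0.33 (adjusted p = 0.0872). ATF4 itself read 17646 and 17095 at 4 µg against 11832 and 12867 in the control, a 1.41-fold rise (adjusted p = 0.0185). SLC3A2, the heavy chain of amino acid transporters, rose 3.04-fold by the probe used, while its second kept probe had a log2 change of -0.11 (adjusted p over probes 0.648). Without 1 array at a time 12 to 14 members were called higher.

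Cytosolic aminoacyl-tRNA synthetases, which load tRNAs with amino acids, were higher in part. Of 19 tested 8 rose, against 11.8% of all tested genes, with a median log2 change of 0.22. At an unadjusted p under 0.05, 8 were higher and 2 lower. CARS1, the cysteine enzyme, had 276.0 and 304.8 at 4 µg against 165.9 and 122.7 in the control (log2 1.02, SE 0.18; adjusted p = 0.00435). AARS1, the alanine enzyme, had 8169 and 8392 at 4 µg against 5533 and 5736 in the control (log2 0.56, SE 0.12; adjusted p = 0.0111). The phenylalanine subunits FARSA and FARSB had log2 changes of -0.46 (adjusted p = 0.0612) and -0.48 (adjusted p = 0.0717). The count rested on all arrays: it was 1 without 4 µg replicate 1, 3 without 4 µg replicate 2, 2 without control replicate 1 and 5 without control replicate 2. Of 14 mitochondrial synthetases 1 was called, HARS2 (log2 0.73, SE 0.23; adjusted p = 0.0422), which was detected on 1 of 2 control arrays.

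A list of eIF2alpha itself, its kinases and phosphatase subunits and its exchange factor eIF2B held 14 tested genes, of which 4 rose and 2 fell. Of all tested genes 11.8% rose and 10.4% fell. Among the 12 members detected in both groups 3 rose and 1 fell. Those that rose were PPP1R15A, PPP1R15B, a second phosphatase subunit that was undetected in the control (0 of 2 arrays), EIF2B2, a subunit of the exchange factor, and EIF2AK3. The rise of PPP1R15B was at least 1.01-fold. Its call ended in 8 of 14 alternatives. These were median scaling over the tested probes, no background subtraction, no detection filter, a variance trend and the fits without any 1 of the 4 arrays. Those that fell were EIF2AK4 and PPP1CA, a catalytic phosphatase subunit that was detected on 0 of 2 arrays at 4 µg. EIF2AK3, the kinase PERK of the endoplasmic reticulum, rose by 0.44 (SE 0.14; adjusted p = 0.0417). EIF2AK4, the kinase GCN2 that senses uncharged tRNA, had 430.6 and 557.9 at 4 µg against 914.2 and 764.3 in the control and fell by 0.77 (SE 0.16; adjusted p = 0.00749). EIF2AK2, the kinase PKR that binds double-stranded RNA, differed by -0.17 (SE 0.16; adjusted p = 0.465). Leaving out 4 µg replicate 1, 4 µg replicate 2, control replicate 1 or control replicate 2 left 1, 1, 2 and 2 members higher. The call of EIF2AK4 ended without 4 µg replicate 1 or control replicate 1, and that of PPP1CA without control replicate 1.

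Immediate early genes, which growth and stress signals switch on within minutes, were divided. Among 21 members tested, 10 rose, 1 fell and the other 10 missed the threshold, and 8 of the 19 detected in both groups rose. Of all tested genes 11.8% rose and 10.4% fell. FOS, a partner of JUN in the transcription factor AP-1, had 864.0 and 734.2 at 4 µg against 129.8 and 155.6 in the control. The groups lay far apart, and the rise was 5.61-fold (log2 2.49, SE 0.18; adjusted p = 4.23e-05). FOSB, its close relative, was undetected in the control (0 of 2 arrays) and at least 2.09-fold higher (adjusted p = 0.00091). GADD45B, an activator of JNK and p38 signalling, had 609.2 and 596.3 at 4 µg against 239.4 and 191.5 in the control (2.81-fold, adjusted p = 0.0002).

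The matrix proteins CCN1 and CCN2 rose by 1.28 (SE 0.13) and 0.87 (SE 0.13), and the zinc finger factor KLF6 by 0.99 (SE 0.13). JUN itself had 188.8 and 217.2 at 4 µg against 198.0 and 159.9 in the control, and the groups overlapped (log2 0.19, SE 0.15; adjusted p = 0.391). EGR1, a classic serum response gene, had 1642 and 1414 against 1576 and 1320 (log2 0.08, SE 0.22; adjusted p = 0.822). The log2 change of MYC was 0.02 (SE 0.17; adjusted p = 0.934). The member that fell, IER5L, lost its call in 7 of 15 alternatives (adjusted p up to 0.247). Leaving out 1 array left 9 or 10 members higher.

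In the ERK pathway, 4 of 14 outputs and feedback genes rose and 1 fell, against 11.8% and 10.4% of all tested genes. Among the 12 detected in both groups 3 rose and 1 fell. ETV5, a transcription factor of the pathway, had 187.0 and 191.7 at 4 µg against 84.3 and 89.4 in the control, where it was detected on 1 of 2 arrays (log2 1.12, SE 0.14; adjusted p = 0.000691). DUSP1, a phosphatase that turns MAP kinases off, rose by 0.65 (SE 0.12), with 9720 and 9381 at 4 µg and 5885 and 6276 in the control. CCND1, cyclin D1, had 911.3 and 860.0 at 4 µg and 1786 and 1648 in the control, a 1.94-fold fall (adjusted p = 0.00124). In the JNK and p38 cascade 4 of 18 members rose, among them GADD45A by 1.27 (SE 0.17). Of the 16 detected in both groups 3 rose.

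Histone genes, whose replication-dependent transcripts normally lack a poly(A) tail, were higher. Only 12 of 58 listed histone genes on the arrays were tested, since the others were not detected on both arrays of either group. Of the 12, 10 rose, against 11.8% of all tested genes. Of the 9 detected in both groups 8 rose, with a median log2 change of 1.20. H4C8 had 316.0 and 296.0 at 4 µg against 93.5 on each control array, a 3.27-fold rise (adjusted p = 4.07e-05). H4C14 had 536.7 and 412.9 at 4 µg against 135.9 and 143.7 in the control, a 3.37-fold rise (adjusted p = 0.000114). The groups did not overlap in either gene. H1-2, a linker histone, had 2645 and 2918 at 4 µg against 1067 and 1097 in the control, a 2.57-fold rise (adjusted p = 0.000225). H4C3 had the brightest signals, with 14570 and 19229 at 4 µg and 4846 and 8589 in the control, and a wider spread between duplicates (log2 1.38, SE 0.23; adjusted p = 0.0034). H2AC14 had a log2 change of -0.23 (adjusted p = 0.286). Histone genes have near-identical copies to which a probe may also bind, so single members are uncertain. Leaving out 1 array left 8 or 9 members higher.

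Further genes were among those with large rises. PLA2G4C, a phospholipase, had 457.0 and 476.1 at 4 µg against 111.9 and 116.9 in the control (4.08-fold, adjusted p = 1.21e-05). SQSTM1, the autophagy receptor p62, had 3180 and 3145 at 4 µg against 1259 and 1339 in the control (2.44-fold, adjusted p = 0.000214). The groups were well apart in both. BEST1, a chloride channel, had 317.5 and 283.2 at 4 µg against 85.4 and 89.4 in the control, where it was detected on 1 of 2 arrays (3.43-fold, adjusted p = 4.07e-05). ZNF165, a zinc finger gene, had 313.3 and 338.3 at 4 µg against 76.7 and 123.2 in the control, where it was detected on 1 of 2 arrays (3.35-fold, adjusted p = 0.000406). Some had no detected signal to compare with. RASSF1, a scaffold of Hippo signalling, and SCG2, a secretory granule protein, were detected on 0 of 2 control arrays and were at least 2.13-fold and 1.98-fold higher. COG5, a Golgi protein, was likewise undetected in the control and at least 2.34-fold higher, but its 4 µg arrays were uneven at 145.0 and 285.8.

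**Figure D2:**
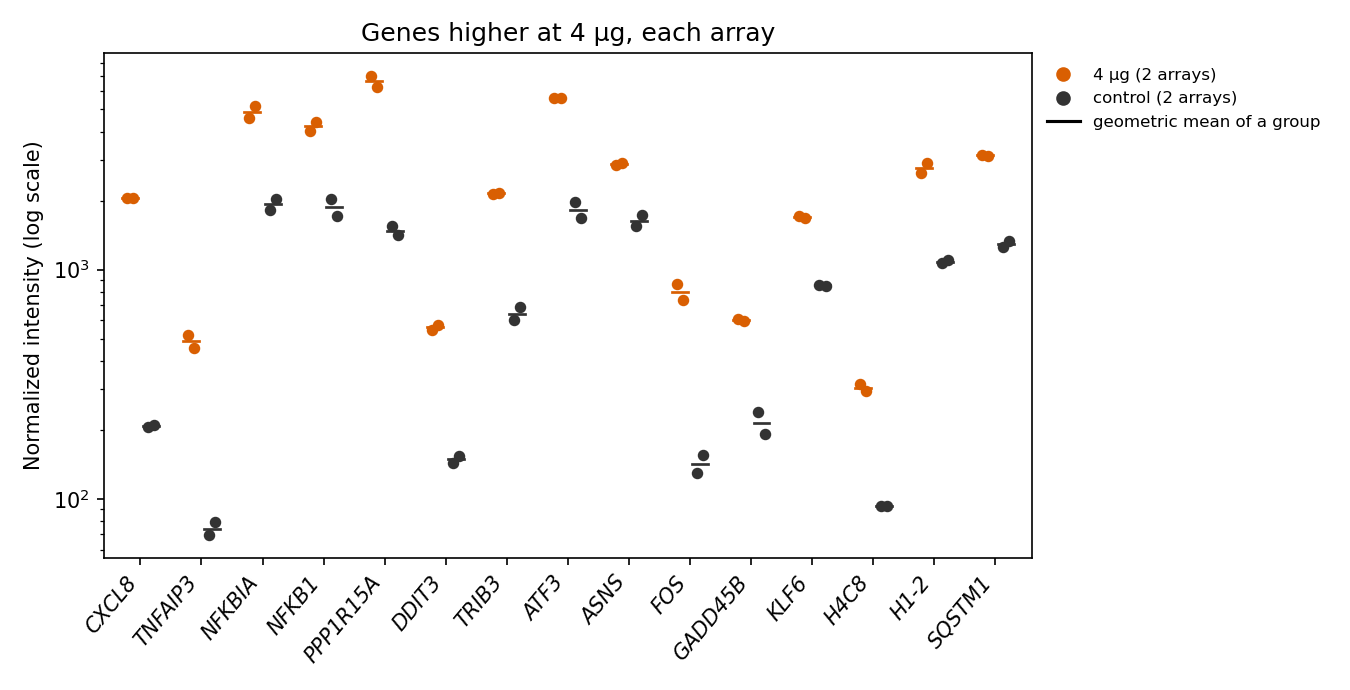
Normalized intensity on a log axis for 15 genes called higher, with the 2 arrays at 4 µg in orange left of the 2 control arrays in black and a bar at each group's geometric mean. In each gene both 4 µg arrays lie above both control arrays; for CXCL8 they are 2044 and 2058 against 206.5 and 208.9.

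The largest falls were smaller than the largest rises. LRRC26, an auxiliary protein of potassium channels, was detected on 0 of 2 arrays at 4 µg, with 41.9 and 37.6, against 141.6 and 145.3 in the control, and was at least 1.74-fold lower (adjusted p = 3.68e-05). NEFL, the light neurofilament that HEK293 cells express, had 94.7 and 95.7 at 4 µg and 304.5 and 384.4 in the control, a 3.59-fold fall (adjusted p = 0.000255). TXNIP, which binds thioredoxin and limits glucose uptake, had 1168 and 1093 at 4 µg against 3263 and 3074 in the control, a 2.80-fold fall (log2 -1.49, SE 0.13; adjusted p = 0.000125). Each of these genes showed a gap between the groups several times the difference between duplicates. The small RNA SNAR-A1 had a larger mean fall than TXNIP but a wider spread, with 2338 and 3667 at 4 µg against 7264 and 11169 in the control (log2 -1.62, SE 0.34; adjusted p = 0.00854). Its call ended without 4 µg replicate 1 or control replicate 2, and without the detection filter (adjusted p up to 0.0797).

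GAMT, an enzyme of creatine synthesis, had 493.5 and 500.2 at 4 µg against 1265 and 1261 in the control (2.54-fold lower, adjusted p = 0.000143). IGFBP5, a binding protein of insulin-like growth factors, had 350.2 and 307.9 at 4 µg and 776.4 and 861.4 in the control (2.49-fold lower, adjusted p = 0.000342). PANX2, a large-pore channel, AMOT, a Hippo pathway scaffold, and the kinase genes LMTK3 and SBK1 fell by 1.28 to 1.34 on the log2 scale. RPL23AP32, a ribosomal protein pseudogene, had 89.3 and 66.5 at 4 µg against 185.1 and 198.6 in the control (log2 -1.31, SE 0.21; adjusted p = 0.00252), and transcripts of close copies may bind its probe. TUBB4A, a neuronal tubulin, was detected on 0 of 2 arrays at 4 µg and was at least 1.37-fold lower.

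Cytosolic chaperones of the heat shock response were lower in part. Of 27 tested 8 fell, against 10.4% of all tested genes, and the median log2 change was -0.14. At an unadjusted p under 0.05, 11 were lower and 1 higher. HSPA1B, the inducible HSP70, had 9281 and 9892 at 4 µg against 21120 and 18490 in the control, a 2.06-fold fall (adjusted p = 0.000739), and HSPA1A, a near copy, may share its probe signal. HSPB1, the small heat shock protein HSP27, had 3448 and 3971 at 4 µg against 6313 and 6463 in the control, a 1.73-fold fall (adjusted p = 0.00265). The count was 4 without 4 µg replicate 1, 4 without 4 µg replicate 2, 7 without control replicate 1 and 2 without control replicate 2, and 3 when scaled by the median of all probes.

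In the endoplasmic reticulum 8 of 32 chaperones and unfolded protein response genes fell and 3 rose, with a median of -0.18. Of all tested genes 10.4% fell and 11.8% rose. SDF2L1, a cofactor of BiP, had 814.3 and 1065 at 4 µg against 1829 and 1873 in the control (1.99-fold lower, adjusted p = 0.00179). HSPA5, BiP itself, had 781.1 and 741.4 against 1208 and 977.8 (log2 -0.51, SE 0.14; adjusted p = 0.0242). XBP1, a transcription factor that raises such chaperones once its RNA is spliced, had 1890 and 1666 against 1276 and 1283 and rose by 0.47 (SE 0.13; adjusted p = 0.0247), and the array does not tell its splice forms apart. The count of members that fell was 1 without 4 µg replicate 1, 2 without 4 µg replicate 2, 1 without control replicate 1 and 4 without control replicate 2, and it was 1 with median scaling over all probes. The members that rose numbered 0, 0, 2 and 0 without these arrays in the same order, and 1 with no detection filter.

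Genes of cholesterol and fatty acid synthesis that SREBP factors control were lower in part. Of 24 tested 9 fell, against 10.4% of all tested genes, and 15 were not called, and the median was -0.30; at an unadjusted p under 0.05, 10 were lower and 1 higher. INSIG1, which holds the SREBP complex in the endoplasmic reticulum, had 663.9 and 621.8 at 4 µg against 1396 and 1482 in the control, a 2.24-fold fall (adjusted p = 0.000406). TM7SF2, a sterol reductase, fell by 0.74 (SE 0.14), and FASN, fatty acid synthase, fell by 0.53 (SE 0.13). The call of FASN ended in 5 of 15 alternatives. HMGCS1, an early enzyme of the pathway, fell by 0.47 (SE 0.13), and its call ended in 6 of 15 alternatives. The count was 3 without 4 µg replicate 1, 2 without 4 µg replicate 2, 3 without control replicate 1, 2 without control replicate 2 and, scaled by the median of all probes, 3.

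In the glycolysis and hypoxia list 8 of 28 genes fell and 2 rose, with a median of -0.33, against 10.4% and 11.8% of all tested genes. PFKFB4, which sets the level of a glycolysis activator, had 207.6 and 204.5 at 4 µg against 337.0 and 343.5 in the control (log2 -0.72, SE 0.12; adjusted p = 0.00308). ALDOA, aldolase, fell by 0.71 (SE 0.14), and NDRG1, a hypoxia-induced gene, fell by 0.59 (SE 0.14). BHLHE40, a transcription factor of hypoxia and the clock, had 2557 and 2374 at 4 µg against 1160 and 1033 in the control and rose by 1.17 (SE 0.13; adjusted p = 0.000464). GAPDH, a glycolytic enzyme whose RNA serves as a loading standard, had 3127 and 3044 at 4 µg and 4504 and 4797 in the control (log2 -0.59, SE 0.16; adjusted p = 0.0239). All 3 of its kept probes and each scaling gave a negative change, and the call ended without any 1 of the 4 arrays (adjusted p up to 0.116). ACTB, another such standard, had a log2 change of -0.21 (adjusted p = 0.308), which became -0.50 with median scaling over the tested probes (adjusted p = 0.0175). Of its other kept probes 1 fell by 0.98 (adjusted p over probes 0.0224) and 1 differed by -0.337 (adjusted p over probes 0.231). The list's lower count was 1 without 4 µg replicate 1, 3 without 4 µg replicate 2, 3 without control replicate 1 and 4 without control replicate 2, and it was 4 with median scaling over all probes.

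TXNIP belongs to a family of arrestin-like proteins, 2 relatives of which were called in opposite directions. ARRDC3, undetected in the control (0 of 2 arrays), was at least 1.42-fold higher, with 122.6 and 124.7 at 4 µg against 81.9 and 68.0 in the control (adjusted p = 0.00554). ARRDC4, like TXNIP a target of the glucose sensor MondoA, had 144.2 and 139.7 at 4 µg against 191.8 and 211.8 in the control (log2 -0.51, SE 0.12; adjusted p = 0.0174). Its call ended in 4 of 15 alternatives, those without 4 µg replicate 1, 4 µg replicate 2 or control replicate 2 and the one scaled by the median of all probes (adjusted p up to 0.171).

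In a list of NRF2 targets and metallothioneins, 4 of 19 tested genes fell and 2 rose, against 10.4% and 11.8% of all tested genes. Scaled by the median of all probes, 2 fell and 7 rose. The lower count was 3 without 4 µg replicate 1 and 2 without 4 µg replicate 2, control replicate 1 or control replicate 2, and the higher count 1, 1, 1 and 3. Of the metallothioneins, small metal-binding proteins, MT1X, MT2A and MT1F were tested, and MT1A, MT1E, MT1G, MT1H and MT1M were not. MT1X had 1205 and 1201 at 4 µg against 2546 and 2106 in the control (1.92-fold lower, adjusted p = 0.00143), and MT2A fell by 0.72 (SE 0.14; adjusted p = 0.00622). MT1F differed by -0.34 (adjusted p = 0.112). HMOX1, a haem oxygenase that NRF2 raises, differed by 0.36 (SE 0.15; adjusted p = 0.12). NQO1, another NRF2 target, fell by 0.49 (SE 0.15; adjusted p = 0.041), but that call ended in 6 of 15 alternatives.

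**Figure D3:**
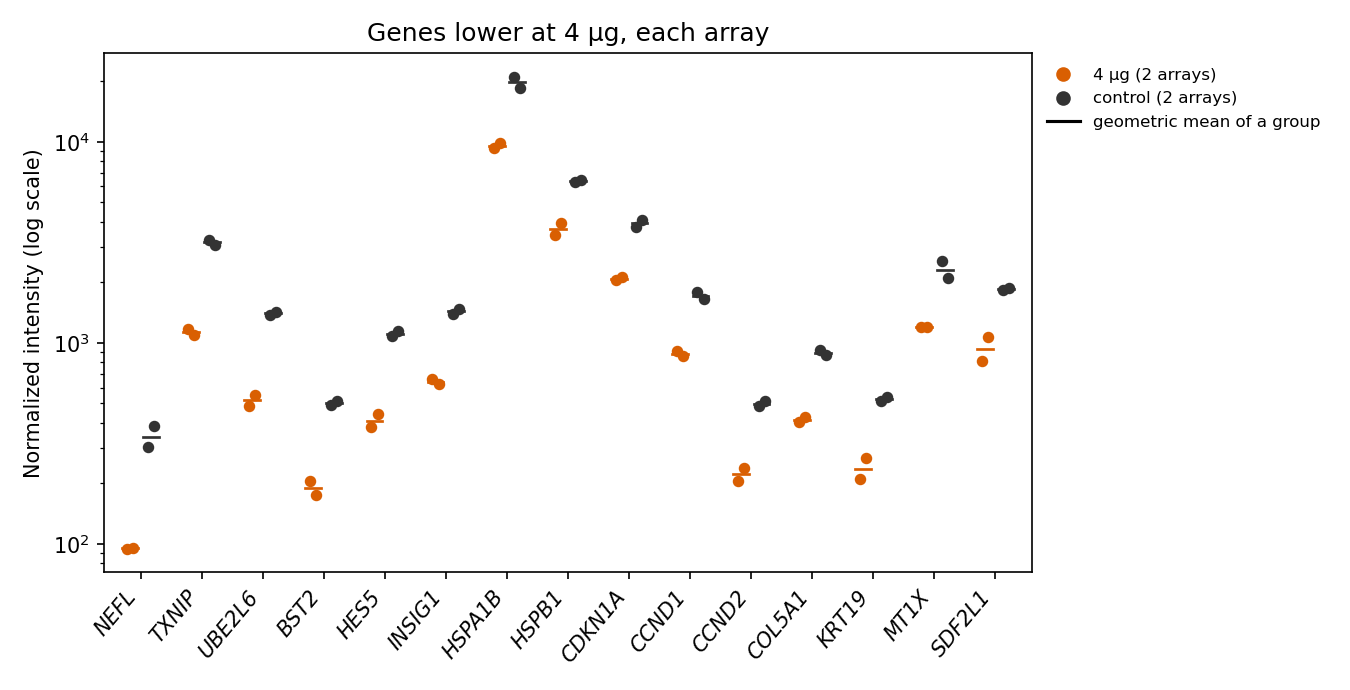
Normalized intensity on a log axis for 15 genes called lower, with the 2 arrays at 4 µg in orange left of the 2 control arrays in black and a bar at each group's geometric mean. Both 4 µg arrays lie below both control arrays in each gene; for TXNIP they are 1168 and 1093 against 3263 and 3074.

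Cell cycle genes moved by member. In the list for G1/S and DNA replication, 4 of 55 tested members rose and 7 fell, shares below and near those of all tested genes. The cyclins of G1 were among those that fell. CCND2, cyclin D2, had 206.3 and 240.0 at 4 µg against 482.9 and 516.2 in the control (2.24-fold lower, adjusted p = 0.001), and CCNE1, cyclin E1, fell by 0.80 (SE 0.14; adjusted p = 0.004). CDT1, which licenses replication origins, had 1807 and 1927 at 4 µg against 1116 and 1141 in the control and rose by 0.73 (SE 0.13; adjusted p = 0.00378). Without 4 µg replicate 1, 4 µg replicate 2, control replicate 1 and control replicate 2 the members that rose numbered 1, 1, 1 and 4, and those that fell 3, 4, 4 and 4. Scaled by the median of all probes, 9 rose and 5 fell.

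In the list for G2/M and mitosis, 8 of 47 tested members rose, against 11.8% of all tested genes, with a median of 0.17, and at an unadjusted p under 0.05 17 were higher and 1 lower. NUF2 and NDC80, partners in the kinetochore complex that binds microtubules, rose by 1.296 (SE 0.23) and 1.00 (SE 0.18). NDC80 had 1428 and 1134 at 4 µg against 599.8 and 671.5 in the control (adjusted p = 0.00471). PLK1, a mitotic kinase, rose by 0.53 (SE 0.13; adjusted p = 0.0144), which ceased to be called without any 1 of the 4 arrays. The count was 2 without 4 µg replicate 1, 3 without 4 µg replicate 2, 2 without control replicate 1 and 3 without control replicate 2, but 19 when scaled by the median of all probes.

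HEK293T cells hold p53 bound by the viral T antigen. Of 18 p53 targets 2 rose and 3 fell, against 11.8% and 10.4% of all tested genes. CDKN1A, the cell cycle inhibitor p21, had 2045 and 2139 at 4 µg against 3780 and 4106 in the control (1.88-fold lower, adjusted p = 0.00115), and ZMAT3, an RNA-binding target, had 884.6 and 836.0 against 1577 and 1644 (1.87-fold lower, adjusted p = 0.00111). The second kept probe of ZMAT3 differed by -0.428 (adjusted p over probes 0.11). GADD45A and AEN, a nuclease, rose by 1.27 (SE 0.17) and 0.57 (SE 0.12), and 1 of the pair was called without 4 µg replicate 1 or without 4 µg replicate 2. The count of p53 targets that fell was 2 without 4 µg replicate 1 and without control replicate 1.

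Of 30 apoptosis genes 3 rose and 2 fell, with a median log2 change of 0.01, so 16.7% were called against 22.2% of all tested genes. TNFRSF12A, a receptor of the TNF family, was undetected in the control (0 of 2 arrays) and at least 1.21-fold higher (adjusted p = 0.00128). The BH3-only gene HRK and the survival gene BCL2L2 rose by 0.47 (SE 0.13) and 0.54 (SE 0.14), and their calls ended when 1 of several arrays was left out (adjusted p up to 0.133 and 0.12). Without 4 µg replicate 1, 4 µg replicate 2 and control replicate 1 the list held 1 gene that rose, and without control replicate 2 it held 3; those that fell numbered 0, 1, 0 and 1. Scaled by the median of all probes 7 rose and 0 fell, and with the authors' processed values 6 rose and 0 fell. FADD, the adaptor that joins death receptors to caspases and a published miR-27a target, had 949.4 and 897.9 at 4 µg against 903.3 and 974.6 in the control. The groups overlapped (log2 -0.02, SE 0.14; adjusted p = 0.92). XIAP, an inhibitor of caspases, was not detected on both arrays of either group and was not tested.

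The interferon response list was divided, with 4 of 24 members higher and 6 lower, against 11.8% and 10.4% of all tested genes. Of the 24, 2 passed the detection filter only through the 4 µg arrays and 1 only through the control arrays. Among the 21 detected in both groups 2 rose and 5 fell. UBE2L6, the enzyme that conjugates ISG15, had 487.5 and 552.0 at 4 µg against 1379 and 1431 in the control (2.71-fold lower, adjusted p = 0.000137). BST2, or tetherin, which holds budding virus at the cell surface, had 206.6 and 174.8 at 4 µg and 489.4 and 517.0 in the control (2.65-fold lower, adjusted p = 0.0002). The antiviral membrane proteins IFITM1, IFITM2 and IFITM3 fell by 0.61, 0.86 and 0.67 on the log2 scale. CXCL10 and IRF1, a transcription factor, rose, and both also stand on the NF-kB list. IFIT2, an inhibitor of translation, rose by 0.49 (SE 0.13), and MX1, a GTPase that blocks viruses, was undetected in the control (0 of 2 arrays) and at least 1.54-fold higher. Of 16 listed sensors of foreign DNA and RNA only 5 were tested, and IFIH1, the sensor MDA5, rose by 0.53 (SE 0.15; adjusted p = 0.03), which was no longer called without any 1 of the 4 arrays (adjusted p up to 0.178). Of the interferon list 2 members rose without 4 µg replicate 1, 4 µg replicate 2 or control replicate 1, and 4 fell without 4 µg replicate 1.

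Of 18 Notch pathway genes 4 fell, with a median of -0.28, and at an unadjusted p under 0.05 9 were lower. JAG2 and LFNG passed the filter only through the control arrays, and among the members detected in both groups 2 of 15 fell, near the 10.4% of all tested genes. HES5, a repressor that Notch raises, had 381.5 and 441.1 at 4 µg against 1078 and 1144 in the control (2.71-fold lower, adjusted p = 0.000148). The ligand gene JAG2 was detected on 0 of 2 arrays at 4 µg and was at least 1.78-fold lower, and LFNG, which adds sugars to the receptor, was detected on 1 of 2 and fell by 0.83 (SE 0.13). DLL1, another ligand, lost its call in 7 of 15 alternatives. In TGF-beta and BMP signalling 5 of 19 genes rose and 2 fell, against 11.8% and 10.4% of all tested genes. INHBE and TGFBI passed the filter only through the 4 µg arrays, and among the 17 members detected in both groups 3 rose and 2 fell. The receptor ACVR1 and the inhibitor SMAD7 rose by 0.66 (SE 0.13) and 0.60 (SE 0.14), while BMP7, a ligand of kidney development, had 366.5 and 312.9 at 4 µg against 639.0 and 574.6 in the control and fell by 0.84 (SE 0.15). The higher count in this list was 3 without 4 µg replicate 1, 2 without 4 µg replicate 2, 3 without control replicate 1 and 4 without control replicate 2, and the lower count was 1 each time.

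Large housekeeping complexes had few called members. Of 33 proteasome genes limma called 0 (3 higher and 6 lower at an unadjusted p under 0.05, and 3 higher and 4 lower without background subtraction). Of 60 ribosomal protein genes 4 fell and 1 rose, with a median of -0.08, against 10.4% and 11.8% of all tested genes. The lower count was 15 with median scaling over the tested probes and 1 with that over all probes. It was 1 without 4 µg replicate 2 or control replicate 2. Of 68 genes of oxidative phosphorylation 6 fell (8.82%), a share below the 10.4% of all tested genes. Their median was -0.11, with 14 lower and 2 higher at an unadjusted p under 0.05. COX6B1, a subunit of cytochrome c oxidase, had 2004 and 1833 at 4 µg against 2835 and 3245 in the control (log2 -0.66, SE 0.13; adjusted p = 0.00659). Scaling changed that count too, to 11 over the tested probes and 1 over all probes, and it was 2 without 4 µg replicate 1, 1 without 4 µg replicate 2, 1 without control replicate 1 and 3 without control replicate 2. Of 72 mitochondrial ribosome genes 8 rose, a share near the 11.8% of all tested genes, and 1 fell. The 8 became 5 with median scaling over the tested probes and 4 with no detection filter, and without an array they became 0, 0, 1 and 5 in the same order.

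Published targets of the 3 microRNAs did not move one way. Of 23 tested miR-23a targets 2 fell and 5 rose, with a median log2 change of 0.19, and 4 of the 23 passed the filter only through the 4 µg arrays. Among the 19 detected in both groups 2 fell and 2 rose, with a median of 0.107. Of 34 miR-27a targets 5 fell and 5 rose, with a median of -0.02, and of 38 miR-24 targets 3 fell and 4 rose, with a median of -0.01. The shares that fell stood beside 10.4% of all tested genes, and those that rose beside 11.8%. Among miR-27a targets, SEMA6A, a semaphorin, had 753.3 and 845.4 at 4 µg against 1606 and 1502 in the control (log2 -0.96, SE 0.13; adjusted p = 0.001). IGF1R, the receptor of insulin-like growth factors, fell by 0.73 (SE 0.14), SFRP1, a Wnt antagonist, fell by 0.69 (SE 0.12) and HIPK2, a stress kinase, fell by 0.94 (SE 0.21). The transcription factors FOXO1 and SMAD4, also listed for miR-27a, rose by 0.54 (SE 0.14) and 0.44 (SE 0.12). For miR-23a, TNFAIP3, IRF1 and PLAU, which are on the NF-kB list too, were higher, and MT2A and PKNOX1, a homeobox factor, were lower. For miR-24, TRIB3 and BRCA1, a DNA repair gene, rose and INSIG1 fell. Leaving out 4 µg replicate 1, 4 µg replicate 2, control replicate 1 or control replicate 2 gave 1, 2, 3 and 2 higher and 3, 4, 3 and 4 lower miR-27a targets, 2, 2, 3 and 4 higher and 1, 1, 1 and 2 lower miR-24 targets, and 1 lower miR-23a target each time. The precursor transcript MIR23AHG has no probe on the arrays.

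Of 20 genes of the microRNA machinery 3 fell and 1 rose, against 10.4% and 11.8% of all tested genes. TNRC6B, a silencing partner of Argonaute, had 472.7 and 497.8 at 4 µg against 984.7 and 783.6 in the control (log2 -0.86, SE 0.17; adjusted p = 0.00633). AGO1 fell by 0.58 (SE 0.13) and AGO3 rose by 0.72 (SE 0.15), both Argonautes. DICER1, the nuclease that releases mature microRNAs, differed by -0.38 (SE 0.13; adjusted p = 0.0601). The calls of TNRC6B, AGO1 and AGO3 each ended without at least 1 array (adjusted p up to 0.0592, 0.0983 and 0.0713).

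The HEK293 markers VIM, KRT8, KRT18, CDH2 and NEFL were detected on the arrays of both groups, while the kidney developmental factors PAX2, PAX8 and LHX1 were not tested. Of 11 tested HEK293 markers 3 fell, NEFL, KRT19 and KRT8, and their summed intensity was 13147 and 12837 at 4 µg against 13875 and 14531 in the control. Of 6 tested fibroblast and stromal markers 5 fell, with sums of 919.5 and 979.8 at 4 µg against 1726 and 1653 in the control, and 3 fell without 4 µg replicate 1. Since SPARC and COL1A1, both matrix proteins, passed the filter only through the control arrays, which favours a fall, the 4 markers detected in both groups are given too, of which 3 fell, beside 10.4% of all tested genes. Among them, COL5A1, a collagen chain, had 403.9 and 428.4 at 4 µg and 921.6 and 870.9 in the control (2.15-fold lower, adjusted p = 0.000523), and DCN, PDGFRA and THY1 were not tested. Of 5 epithelial markers 2 fell, with sums of 3251 and 2955 against 3833 and 5131, and CDH1 and EPCAM were not tested. Of 3 haematopoietic markers CD68, a lysosomal protein, rose by 0.74 (SE 0.16), with sums of 662.3 and 685.1 against 511.0 and 528.4, and PTPRC, CD3E and SPI1 were not tested. Of 7 neuronal markers NEFL fell and SNAP25, a synaptic protein undetected in the control, was at least 1.48-fold higher, with sums of 4277 and 4193 against 5036 and 4877. The part of cell composition in the results was not tested.

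**Figure D4:**
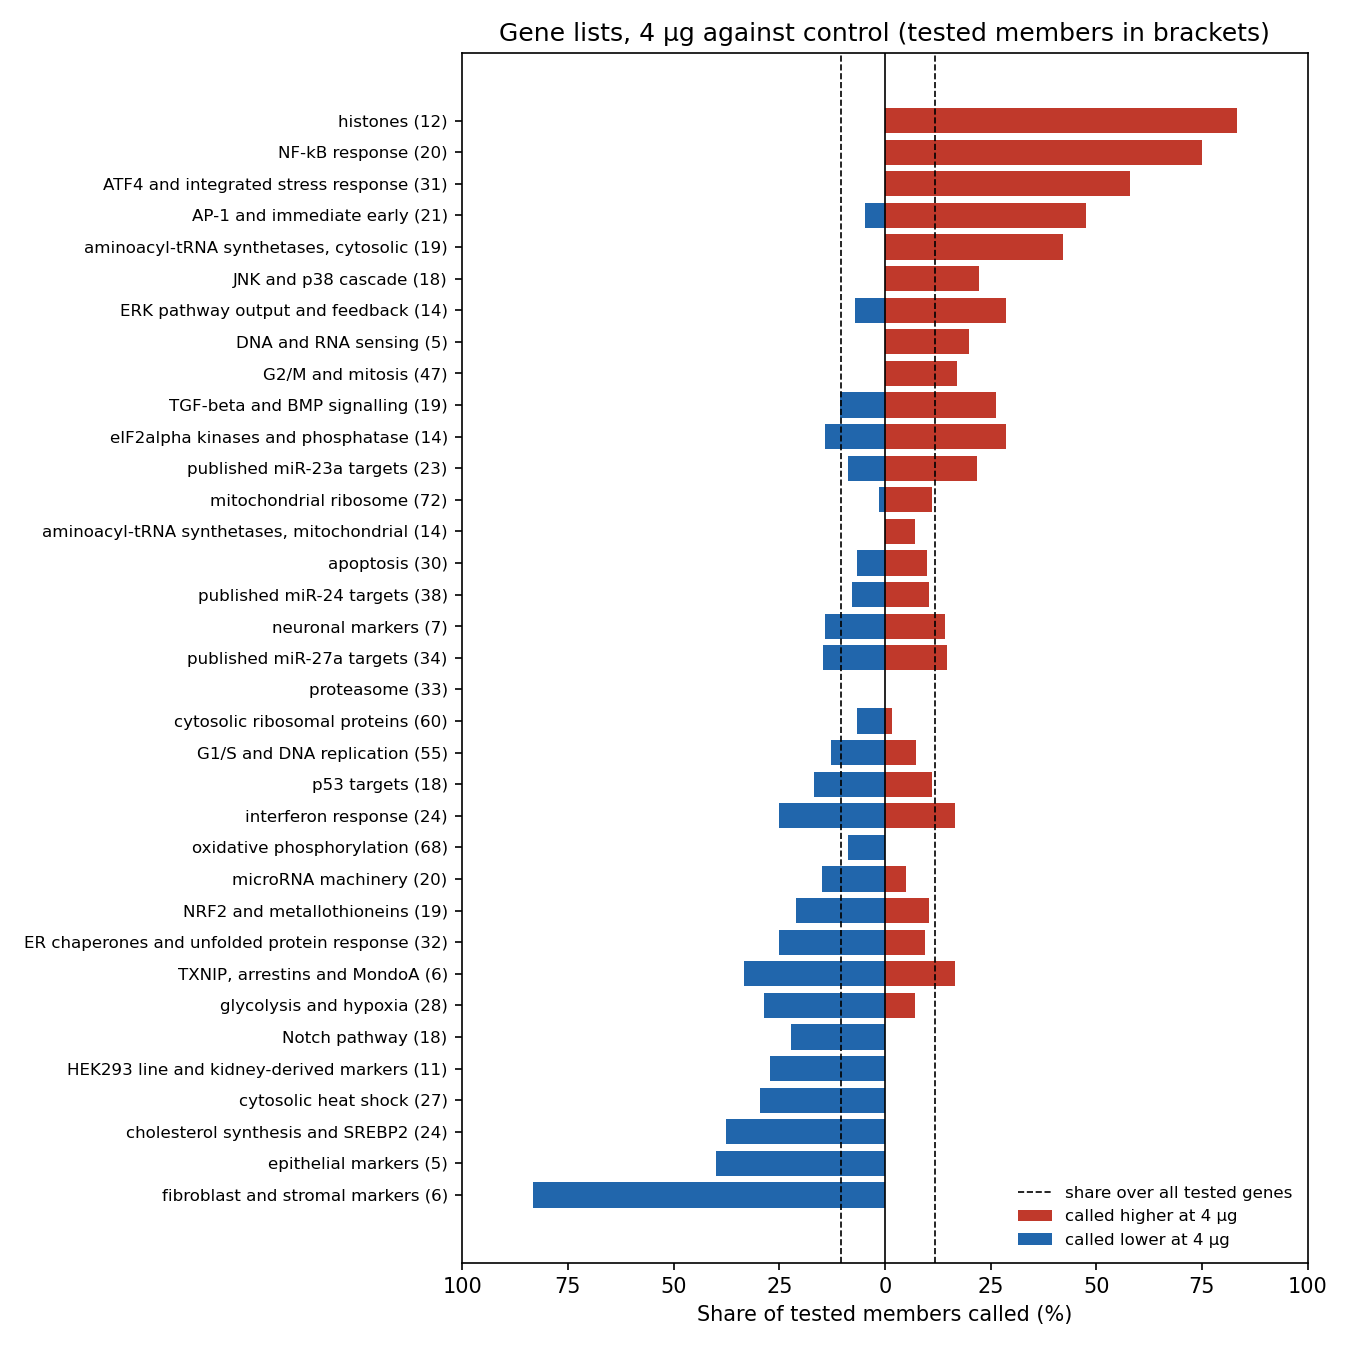
Share of tested members called higher (red, right) and lower (blue, left) at 4 µg against control for 35 gene lists, with the number tested in brackets and dashed lines at the shares over all tested genes, 11.8% higher and 10.4% lower. Histones (10 of 12), the NF-kB response (15 of 20) and the ATF4 programme (18 of 31) stand at the top, and fibroblast markers (5 of 6) at the bottom.

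The higher dose was also set against the lower one. Between 4 µg and 2 µg limma called 686 of 7924 genes (8.66%), with 419 higher at 4 µg and 267 lower, and 2128 had an unadjusted p under 0.05. Both comparisons with the control use the same control arrays, so their calls are not independent. The comparison with the control and that between doses share the 4 µg arrays. Picking genes by their 4 µg values in one therefore favours the same direction in the other. Of the 934 genes higher at 4 µg than in the control, 35 were called higher at 4 µg than at 2 µg and 90 lower. Of the 826 genes lower at 4 µg than in the control, 19 were called lower at 4 µg than at 2 µg and 127 higher. Lower at 4 µg than at 2 µg were 8 of the 20 NF-kB genes and 9 of the 31 ATF4 genes, beside 267 of all 7924. So were 7 of 14 genes of the ERK list and 12 of 55 of the G1/S list. In each of these lists 0 were called higher at 4 µg than at 2 µg. ETV5, on the ERK list, had a log2 difference of -2.016 (adjusted p = 0.00023). CXCL8, for example, had 2044 and 2058 at 4 µg against 2921 and 3225 at 2 µg (log2 -0.58, adjusted p = 0.0212). TRIB3 had 2149 and 2166.3 against 3705 and 3286 (log2 -0.69, adjusted p = 0.015). IGFBP5, which fell, had 350.2 and 307.9 at 4 µg against 115.6 and 97.5 at 2 µg (log2 1.63, adjusted p = 0.00121).

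Some genes were farther from the control at 4 µg. TXNIP had 1168 and 1093 at 4 µg against 2510 and 2244 at 2 µg (log2 -1.07, adjusted p = 0.00289). FOS had 864.0 and 734.2 at 4 µg against 408.2 and 580.9 at 2 µg (log2 0.71, adjusted p = 0.0387). CCND1 had 911.3 and 860.0 at 4 µg against 1270 and 1465 at 2 µg (log2 -0.62, adjusted p = 0.0207). In each the duplicates of the doses did not overlap. Outside the lists and chosen after their values were seen, COLEC11, a collectin of innate immunity, had 292.3 and 277.7 at 4 µg against 149.3 and 136.2 at 2 µg (log2 1.00, adjusted p = 0.00333). S100A4, a calcium-binding protein, had 135.4 and 124.4 in the control, 103.0 and 105.5 at 2 µg and 312.4 and 245.1 at 4 µg. MTMR2, a lipid phosphatase, had 544.9 and 453.2 in the control, 548.4 and 505.2 at 2 µg and 231.8 and 265.6 at 4 µg. For both, the 4 µg group stood apart from the other arrays (4 µg against 2 µg, adjusted p = 0.00141 and 0.00379).

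**Figure D5:**
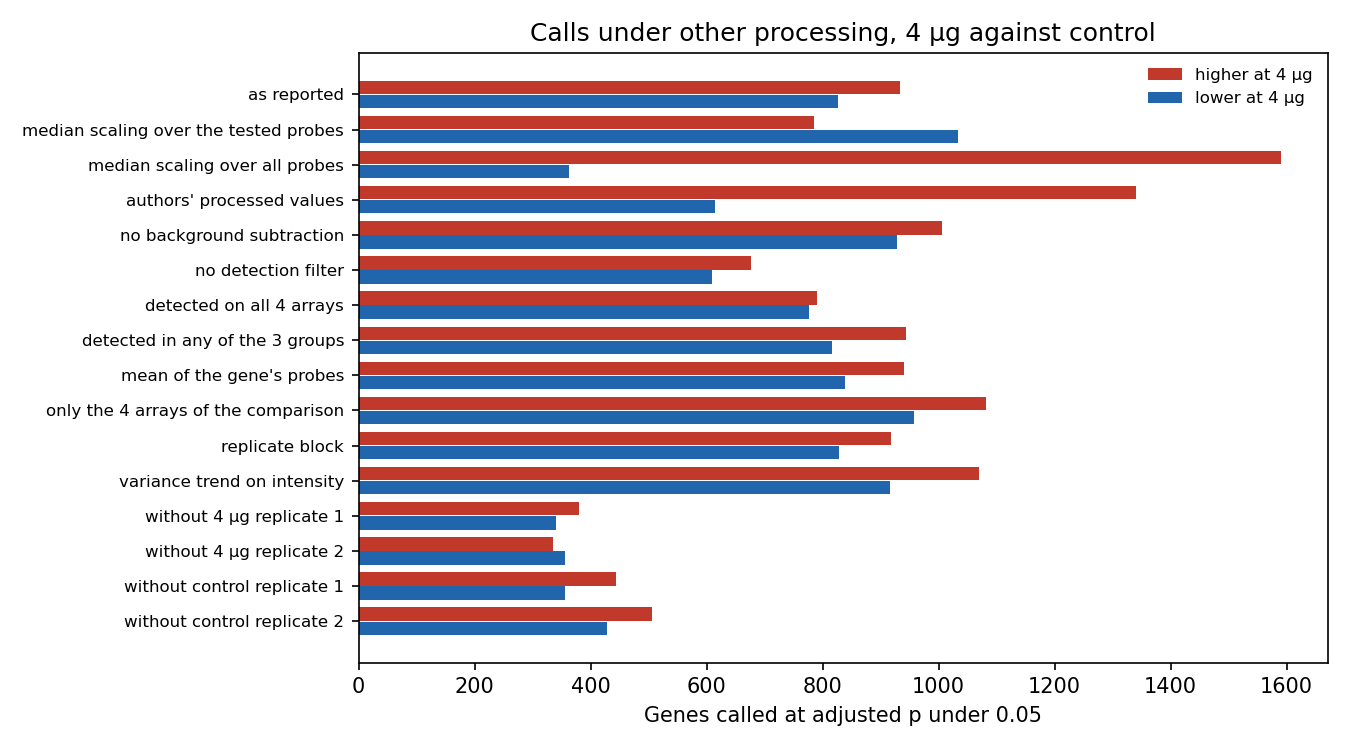
Number of genes called higher (red) and lower (blue) at 4 µg against control as reported and under 15 other processing choices. The counts as reported are 934 and 826, those scaled by the median of all probes 1591 and 363, and those without 1 array lie between 335 and 505 higher and between 340 and 429 lower.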

How the data were processed

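RNA of 6 HEK293T samples was measured on Illumina Human-6 bead arrays read with BeadStudio, per the submitters' processing notes, which name no version. The deposited table holds, per the file headers, the mean bead intensity of each probe, not normalized, with a detection p-value, and the bead standard error and bead number, which are in other units. A second deposited table gives the authors' processed intensity, a linear function of the scanner values on each array (residual at most 0.0101). Intensities were background-corrected, given an offset of 16, quantile-normalized and taken to log2 with neqc of limma 3.58.1 in R 4.3.3. Probes with several or no gene symbols were left out, and the brightest kept probe stood for each gene. Genes needed a detection p under 0.01 on both arrays of the 4 µg or the control group. One limma fit over all 6 arrays gave each contrast, two-sided, with Benjamini-Hochberg adjustment over 7924 genes. Probes had a median of 40 beads, and precision is set by the few arrays.

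The rule for naming genes took the 15 largest rises and 15 largest falls among called genes whose groups did not overlap, the 5 members of each list with the smallest p, the member called against its list, and XIAP, FADD, MIR23AHG, TXNIP, NEFL, GAPDH and ACTB. This gave 185 tested genes, not all of which are described; others are named by list membership or as the text says. The comparison and its 36 lists were chosen with earlier results of these data known. The labels give no pairing of samples by replicate number. Deviations of same-numbered arrays correlated at -0.096 between 4 µg and control, 0.115 between 4 µg and 2 µg and -0.041 between 2 µg and control. With 2 arrays a group these values cannot show whether same-numbered samples were prepared together. On simulated data with 200 of 7924 genes changed, the fit recovered 30.5% of changes of 0.5 on the log2 scale with 4 false calls, and 100% of changes of 1 with 5 false calls. The alternatives were other scalings, the authors' values, no background subtraction, other detection filters, the mean of a gene's probes, only the 4 arrays compared, a replicate block, a variance trend and leaving out each array.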

Additional observations from a re-analysis of the deposited data

Results flagged for a closer look

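Called on opposite sides of the control at the doses were 3 genes, and the difference between doses was called for each by limma. ARRDC4 had 191.8 and 211.8 in the control, 321.5 and 335.8 at 2 µg and 144.2 and 139.7 at 4 µg, and the log2 difference of 4 µg minus 2 µg was -1.211 (adjusted p = 0.00141). SEH1L, a nucleoporin, had 418.0 and 383.8 in the control, 533.7 and 515.3 at 2 µg and 292.0 and 306.4 at 4 µg, with a difference of -0.81 (adjusted p = 0.00658). TMEM187 had 234.1 and 190.1 in the control, 168.5 and 148.8 at 2 µg and 340.9 and 341.5 at 4 µg, with a difference of 1.108 (adjusted p = 0.00363). Both doses are set against the same control arrays.

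Among 1525 kept probes with several or no gene symbols, which the report does not use, 131 were called higher at 4 µg and 188 lower, together 20.9%. The largest rise was that of ILMN_1911938, with 103.9 and 539.3 at 4 µg against 41.8 and 53.5 in the control (log2 2.32, adjusted p over probes 0.0172), whose 4 µg arrays were far apart. Next came ILMN_1725524, with 209.7 and 225.1 at 4 µg against 47.1 and 40.5 in the control (log2 2.31).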

How the results depend on the processing

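Of 1760 genes called, 451 were called the same way in every alternative that tested them, and 0 changed sign where called. A gene without a probe detected on all 4 arrays was absent from 1 of the 15 alternatives. Of 155 named genes that were called, 85 were called in every alternative that tested them. Leaving out 1 array gave 691 to 934 calls, with 335 to 505 higher and 340 to 429 lower; such fits have fewer arrays and assume that the lone array varies like the other groups. Median scaling over all probes gave 1591 higher and 363 lower, and moved the median over tested genes to 0.183 on the log2 scale, against 0.025 as reported. No other alternative moved the total, the higher or the lower count by over 1.5 times: totals with all arrays kept ran between 1286 (no detection filter) and 2038 (only the 4 arrays). The fit with a replicate block gave 1747 calls. The labels give no pairing of samples, so it is not read as a paired analysis. For 4 µg against 2 µg the block gave 671 calls, against 686 without it. Of 1080 counts of listed genes over lists, directions and alternatives, 240 moved by over 1.5 times. In the self-test, 30.5% of changes of 0.5 on the log2 scale were recovered. That run changed only 200 of 7924 genes, against 1760 called here, which makes its adjusted threshold stricter. The share therefore does not carry over to these data. With 2 arrays a group, a gene not called may still differ.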

Other observations

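Genes called at 4 µg differed in where they lie, given here as description only. On chromosome 19, 7.81% of tested genes rose and 15.6% fell, and on chromosome X 8.1% rose and 15.8% fell. On chromosome 18, 17.3% rose and 6.36% fell, and on chromosome 4 16.8% rose and 6.71% fell. The median GC content of the promoter window was 63.7% for genes that rose, 68.7% for genes that fell and 65.0% for genes not called. CCAAT, or its other strand ATTGG, stood in 9 of 11 tested histone promoters (81.8%), against 38.4% of promoters of tested genes.

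SDHAP1 had kept probes that were called in opposite directions (log2 0.50 and -0.49), and it is a pseudogene copy of SDHA.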
